A study of Mus musculus with 8 samples.

Results

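Narrow but strong open sites are described here, from ATAC-seq of NIH3T3 cells, which are immortalised fibroblasts first grown from mouse embryos. They were chosen by position and by strength. Peaks of the 4 deposited lists were merged where they overlapped by at least 1 bp, and a merged region was kept if it lay on an autosome, had a peak in every library, was at most 800 bp wide and had, in every library, a peak p-value among the best 1 in 3 of that library's list. The rule kept 2890 regions of 45915 merged regions, which is 6.29% of all and 10.6% of the 27302 autosomal regions with a peak in all 4 libraries, called shared regions below. A further 78 regions on chromosome X and 0 on Y met the same limits of width and strength and were left out as not autosomal.

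The cells had been cultured for 24 h on G2 or on G128, with 2 libraries each, in a series that set cell adhesion on polyvinyl alcohol and gelatin gels beside open chromatin. What G2 and G128 stand for is not explained in the labels, which give no other treatment or genotype. The line is a single established line, and the labels do not state whether replicates were separate cultures, so a p-value here takes in only library-to-library spread, which may be technical. RNA of the series (4 libraries) was not analysed here, so the labelled cell type was not checked against its marker genes.

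In ATAC-seq the Tn5 transposase cuts and tags DNA between nucleosomes, and reads pile up where chromatin is open. As background, an accessible site in which a single factor or a small complex holds open the space of about a nucleosome gives a short, steep pile, while active promoters and clustered enhancers give wide ones. Binding sites of the insulator protein CTCF are the textbook example of such point sites in mammalian cells. Which factor, gene or repeat lies at the regions below was not annotated, since no genome or annotation of the build mm9 was used here, and for the same reason no sequence is printed. Nor were the regions compared with a list of repeats or of sites where misplaced reads pile up, so it was not tested which of them, the highest ones included, are open chromatin.

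Strength was read at the summit, the highest point of a peak. The p-values of each list follow a whole number of overlapping sequenced intervals at the summit, so this number could be recovered, and it was divided by the mean of the caller's background in that library. The background mean, a measure of depth, was 1.099 and 1.369 intervals per bp in G2 replicates 1 and 2, and 1.054 and 1.411 in G128 replicates 1 and 2. The lists held 42358 and 41585 peaks on G2, and 32540 and 37695 on G128. G128 replicate 1 had the shortest list and the lowest median summit over the shared regions. The results most tied to this library are also given without it.

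The limit for the best 1 in 3 lay at nearly the same height in all libraries. It was 67.3 and 68.7 times the background in G2 replicates 1 and 2, and 65.4 and 65.2 times in G128 replicates 1 and 2, which were 74, 94, 69 and 92 intervals. The median shared region stood at 67.3 and 68.7 times the background on G2, but at 50.3 and 58.1 times on G128. The limit was therefore harder to meet on G128. The worst rank of a region, as a share of the list, was that of G128 replicate 1 in 1895 regions (65.6%), of G128 replicate 2 in 621, of G2 replicate 2 in 256 and of G2 replicate 1 in 118. A region near the limit could enter only with a comparatively high summit on G128, so the difference between the cultures is not free of the rule there.

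The 2890 regions were mostly close to the limit of width. Their merged widths ran from 170 to 800 bp with a median of 667.5 bp, and 38.7% were wider than 700 bp. They covered 1.87 Mb in all. They made up 28.2% of the 10239 autosomal shared regions that met the limit of strength in every list, and 16.3% of the 17737 that were at most 800 bp wide. The remaining 14847 narrow regions, called narrow weaker, had a median width of 412 bp, and the remaining 7349 strong ones, called strong wide, of 1131 bp. Width and strength chose these 3 sets and are not tested between them.

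**Figure D1:**
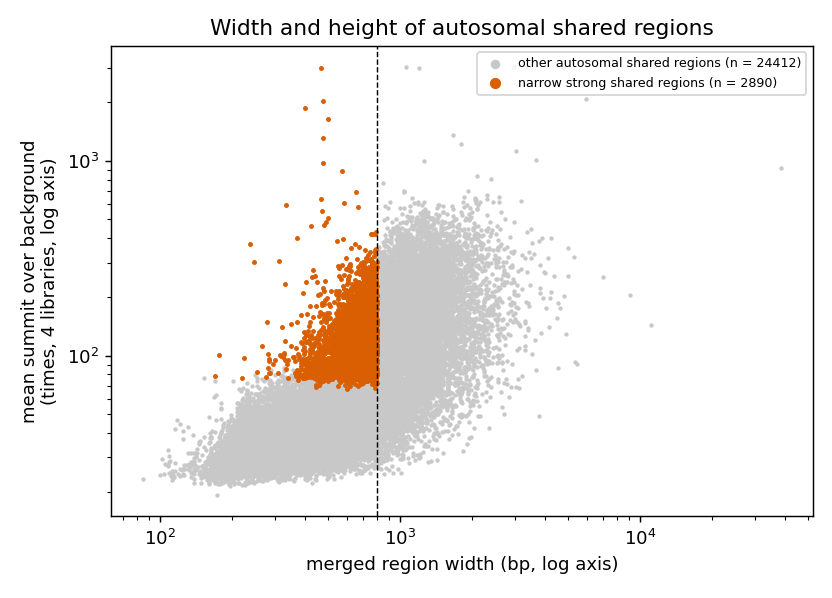
Merged width (x axis, bp, log scale) and mean summit over the background of the 4 libraries (y axis, log scale) of the autosomal shared regions, with the 2890 narrow strong ones in orange and the width limit as a dashed line. Most of them crowd against the limit, and a sparse column of much higher points stands apart at about 500 bp.

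Summits of the narrow strong regions ran over a wide range. In G2 replicate 1 they lay between 67.3 and 2996 times the background with a median of 127 times, and in G2 replicate 2 between 68.7 and 2761 times with a median of 127 times. In G128 replicate 1 the range was 65.4 to 3365 times with a median of 91.1 times, and in G128 replicate 2 it was 65.2 to 2911 times with a median of 105 times. Most were moderate, since 1030 regions had a mean summit of at most 100 times the background, 1175 of over 100 and up to 150 times, 403 of over 150 and up to 200 times, and 232 of over 200 and up to 300 times. Only 50 regions had a mean above 300 times and 14 above 500 times. In the strong wide regions the medians were 188 and 197 times on G2, and 134 and 157 times on G128.

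Just inside the limit stood 19:38112739–38113184 (446 bp), with 73.7 and 68.7 times the background in the G2 libraries and 68.3 and 73.0 times in the G128 libraries. The regions 3:130588795–130589253 (459 bp) and 6:4368928–4369711 (784 bp) shared its value of 68.7 times in G2 replicate 2, which was the limit. Just outside stood 1:34906680–34907121 (442 bp), with 117 and 84.8 times in the G2 libraries and 73.0 and 64.5 times in the G128 libraries. The regions 1:74378860–74379428 and 10:39814563–39814980 missed the limit by the same step, at 64.5 times in G128 replicate 2.

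By its worst rank over the lists, the strongest narrow region was 12:98299586–98300055, 470 bp wide. Its summit held 3294 and 3779 intervals in G2 replicates 1 and 2, and 3548 and 4109 in G128 replicates 1 and 2. It ranked 5 and 1 in the G2 lists, and 6 and 4 in the G128 lists. Its summit was not central but lay at 13.9% of the width from the start, within 7 bp in all libraries. The nearest other shared region was 1196778 bp away.

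The regions that followed had similar widths and lower summits. The region 10:95540105–95540581 (477 bp) reached 2140 and 1632 times the background on G2, and 2719 and 1654 times on G128. The region 6:9839845–9840247 (403 bp) reached 1962 and 1707 times on G2, and 2040 and 1748 times on G128. The region 6:79767896–79768396 (501 bp) reached 1757 and 1425 times on G2, and 1918 and 1460 times on G128. In these regions replicate 1 stood above replicate 2 in both cultures, and the values of the cultures overlapped.

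The region 5:60433908–60434382 (475 bp) reached 1364 and 1089 times the background on G2, and 1673 and 1100 times on G128. The region 11:108872906–108873476 (571 bp) had 1089 and 887 times on G2, and 737 and 852 times on G128, so both G2 libraries were the higher ones. In the region 9:35112752–35113226 (475 bp) the order was turned, with 878 and 777 times on G2, and 1309 and 925 times on G128. The 10 strongest were completed by 16:57391184–57391837, 3:5860289–5860873 and 10:84488666–84489135, with mean summits above 500 times the background and widths of 654, 585 and 470 bp. The last had another shared region 115 bp away, while the distances of the first and the second were 157219 and 188689 bp.

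**Figure D2:**
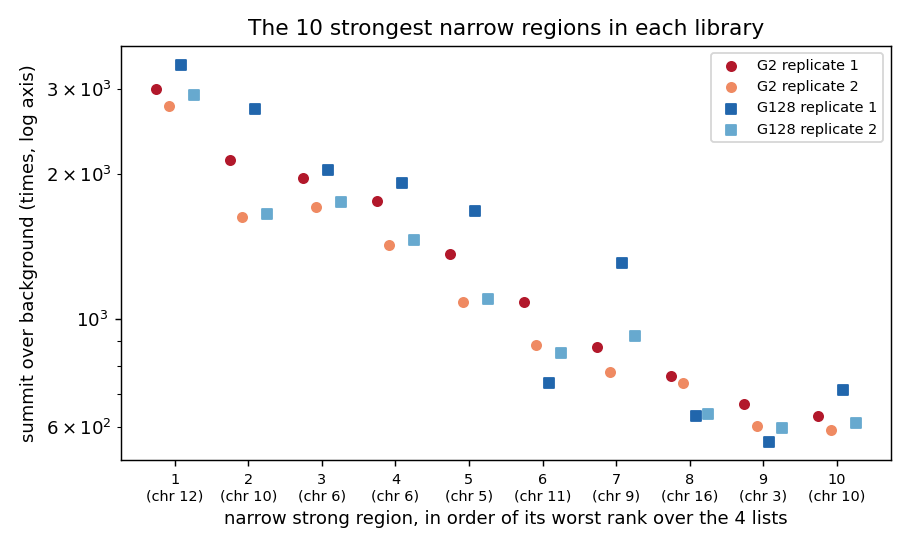
Summit over the background (y axis, log scale) of the 10 strongest narrow regions in each library, G2 as red circles and G128 as blue squares, in order of their worst rank. G128 replicate 1 is the highest library in regions 1 to 5, 7 and 10, and the lowest in regions 6, 8 and 9.

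The narrowest regions reached the limit of strength with widths of 170 to 237 bp. The region 2:27395310–27395479 (170 bp) had 75.5 and 79.6 times the background on G2, and 68.3 and 90.0 times on G128. The region 7:118940978–118941153 (176 bp) had 110 and 84.8 times on G2, and 124 and 82.2 times on G128. The regions 1:104524734–104524952 (219 bp) and 13:113368344–113368566 (223 bp) stood at 67.3 to 114 times over the 4 libraries. The region 2:69193542–69193778 (237 bp) was far higher, with 415 and 270 times on G2, and 535 and 269 times on G128. In none of these 5 did limma call a difference between the cultures, with Benjamini-Hochberg adjusted p-values of 0.135 to 0.749.

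As a whole, the narrow strong regions stood higher over the background on G2, as the shared regions did in general. Averaged over the library medians, summits stood at 127 ± 0.156 times the background for G2 and at 98.0 ± 9.76 times for G128 (SD, n = 2), and the ratio was 1.299. The log2 values were 6.99 ± 0.00177 for G2 and 6.61 ± 0.14 for G128 (SD, n = 2), which differ by 0.38. Over all 27768 shared regions, sex chromosomes included, the difference was 0.33. The median per-region difference in the narrow strong regions was 0.37, and 0.27 without G128 replicate 1. The cultures did not overlap. An exact permutation test (two-sided, 6 assignments) gave p = 0.333, the smallest it can give.

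Both G2 libraries were above both G128 libraries in 2341 of the 2890 regions, and below them in 32. Over all shared regions the shares were 67.6% and 2.79%. The members' shares, 81.0% and 1.11%, stand beside 85.7% and 0.395% in the strong wide regions and 56.2% and 4.36% in the narrow weaker ones. Taken over sets these shares followed the order of the median summits, and the narrow strong regions lay between the other 2 sets. Within the members the share above rose from 728 of 1030 regions at up to 100 times the background to 225 of 232 at over 200 and up to 300 times. At higher summits it was lower, with 27 of 36 regions at up to 500 times and 5 of 14 at over 500 times.

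To compare single regions, each library's median over all shared regions was subtracted on the log2 scale, which removes the general shift of 0.33. On this scale the median narrow strong region differed by 0.04 between G2 and G128, with 90% of regions between -0.32 and 0.30, set by the 5th and 95th percentile. The median was 0.06 in strong wide regions, -0.05 in narrow weaker ones and 0.01 over all shared regions. The library medians of the narrow strong regions were 0.92 and 0.89 on G2, and 0.86 and 0.85 on G128 (exact permutation p = 0.333, the smallest possible). The sign of the narrow strong median depended on the scaling, as it was -0.04 with each library scaled to the strong wide regions and -0.02 after quantile normalization or cyclic loess.

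Few single regions passed the test, and whether any did depended on a choice made after the data were seen. A limma fit without a mean-variance trend, the default, called 0 higher and 0 lower over all 27768 shared regions, with 226 of the 2890 members at an unadjusted p under 0.05. A trend of the variance with height was then added, so each call below rests on that unplanned option. With it, and Benjamini-Hochberg adjustment over all 27768, 38 of the 2890 passed an adjusted p of 0.05, or 1.31%, where 1.47% of all shared regions passed. Of the 38 regions, 11 were higher on G2, or 0.381% against a background of 0.601%, and 27 were lower, or 0.934% against 0.864%. After scaling, both G2 libraries were above both G128 libraries in 790 members (27.3%, background 23.8%) and below them in 526 (18.2%, background 21.9%).

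The calls also depended on the scaling and on the libraries. Without the scaling to the median, 926 members were higher on G2 (background 26.6%) and 5 lower (background 0.220%), as the general shift then counts as a difference. Quantile normalization called 0 higher and 12 lower, in all 0.415% against a background of 0.432%. Cyclic loess called 1 and 27, or 0.969% against 0.879%, and scaling to the strong wide regions 1 and 37, or 1.31% against 1.29%.

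Each fit without one of the libraries left 1 library for a culture, so spread within a culture came only from the pair of the other. The counts of these fits therefore do not compare directly with those of all 4 libraries. Without G2 replicate 1 there were 1 higher and 28 lower, in all 1.00% against a background of 0.425%. With G2 replicate 2 left out there were 2 and 11, or 0.450% against 0.227%. Leaving out G128 replicate 1 gave 56 and 19, or 2.60% against 2.27%, and leaving out G128 replicate 2 gave 48 and 66, or 3.94% against 3.14%. Whether members were called more or less often than other shared regions thus differed between the fits.

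**Figure D3:**
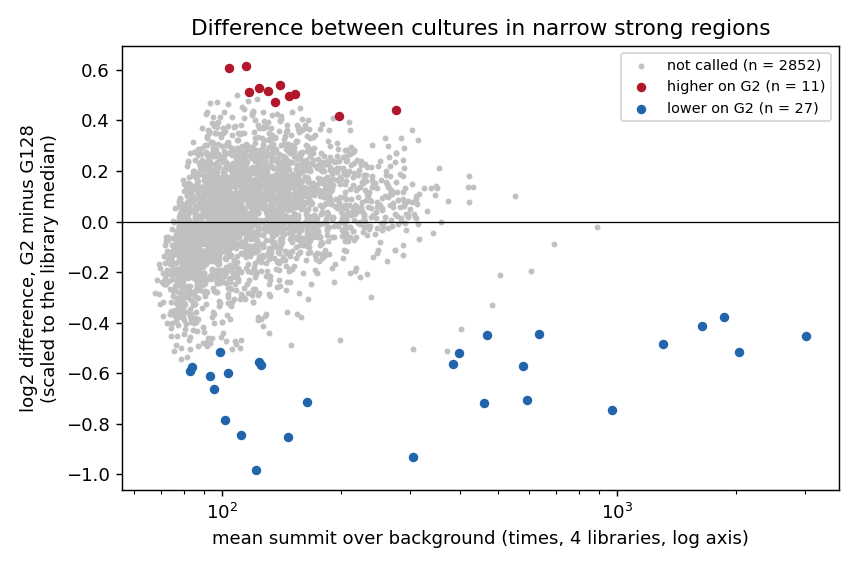
Scaled log2 difference between G2 and G128 (y axis) of the 2890 narrow strong regions against their mean summit over the background (x axis, log scale), with the 11 regions called higher on G2 in red and the 27 called lower in blue. The higher calls lie between 104 and 275 times the background, and the lower ones reach up to the highest summits.

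The regions called higher on G2 were of ordinary height and width. The largest difference was in 17:87601621–87602268 (648 bp), with 160 and 142 times the background on G2, and 68.3 and 90.0 times on G128. Its scaled log2 difference was 0.61 ± 0.14 (SE), with an adjusted p of 0.0129 by limma. The region 10:59858131–59858835 (705 bp) had 155 and 121 times on G2, and 68.3 and 74.4 times on G128, a scaled difference of 0.61. In both, the lower G2 library stood more than 1.5 times above the higher G128 library before scaling.

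The next were 2:92885366–92886009, with 172 and 192 times the background on G2 and 98.6 and 99.9 times on G128, and 6:100168344–100169048, with 150 and 168 times on G2 and 74.9 and 102 times on G128. The region 2:167979898–167980390, 493 bp wide, was the only one of the 11 of at most 500 bp. It had 192 and 145 times the background on G2, and 94.8 and 90.7 times on G128. The highest of the 11 by mean summit was 15:68194604–68195311, with 312 and 384 times on G2, and 214 and 191 times on G128.

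The regions 4:61947319–61947977, 6:122824331–122825064, 2:28323377–28324057 and 6:142704915–142705519 completed the 10 with the largest differences, at scaled differences of 0.51, 0.51, 0.50 and 0.47. The scaled differences of all 11 were between 0.42 and 0.61, their median width was 681 bp and their median distance to the nearest other shared region 20140 bp. All 11 were called without scaling too. Without G128 replicate 1, 10 of them were called, without G128 replicate 2 5, without G2 replicate 2 2 and without G2 replicate 1 1. Quantile normalization called none of them, and cyclic loess and scaling to the strong wide regions called 1.

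The regions called lower on G2 included many of the highest narrow regions, and repeats or misplaced reads at them were not tested. The largest difference was in 3:35579366–35579910 (545 bp), with 94.6 and 94.3 times the background on G2, and 172 and 128.2 times on G128. Its scaled log2 difference was -0.98 ± 0.15 (SE), with an adjusted p of 0.000152 by limma. Its summit lay at 15.3% of the width, within 6 bp in all libraries. The region 12:3109833–3110145 (313 bp) had 267 and 213 times on G2, and 453 and 287 times on G128. In both regions the G2 libraries lay below the G128 libraries without any scaling.

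Chromosome 2 held a pair of such regions 705 bp apart. The region 2:98503751–98504297 (547 bp) had 133 and 105 times the background on G2, and 219 and 131 times on G128. Its neighbour 2:98505003–98505429 (427 bp) had 418 and 371 times on G2, and 651 and 407 times on G128. In both, G128 replicate 1 stood far above the other libraries, and the values of the cultures overlapped before scaling.

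The region 4:152527102–152527367, only 266 bp wide, had 91.0 and 92.8 times the background on G2, and 140 and 123 times on G128. The nearest other shared region was 632690 bp away. The region 17:13498775–13499182 (408 bp) had 148 and 136 times on G2, and 201.1 and 170 times on G128. The region 6:103598999–103599331 (333 bp) had 537 and 482 times on G2, and 823 and 529 times on G128, and no other shared region within 2116178 bp. The 10 with the largest differences were completed by 11:59197737–59198507, by 9:35112752–35113226, which was also among the strongest, and by a region of 332 bp on chromosome 18. Their scaled differences were -0.79, -0.75 and -0.66.

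The median width of the 27 lower regions was 481 bp, against 667.5 bp over all members. At most 500 bp wide were 14 of the 27, against 1 of the 11 higher ones. More than 100 kb from any other shared region lay 10 of the 27 and 1 of the 11, against 6.68% of all members. A mean summit of over 500 times the background was found in 9 of the 27. Of the 27, 13 had both G2 libraries below both G128 libraries before scaling, and 20 had their highest value in G128 replicate 1. Of the 27, 5 were called without scaling. Leaving out a library kept 22 without G2 replicate 1, 11 without G2 replicate 2, 12 without G128 replicate 1 and 25 without G128 replicate 2. Among the 10 strongest regions 7 were called lower, where 0.934% of all members and 0.864% of all shared regions were. How many strong wide regions of like height were called was not counted. The region 12:98299586–98300055 had a scaled log2 difference of -0.45 ± 0.08 (SE, adjusted p = 0.00153 by limma) and an unscaled one of -0.12. The region 6:9839845–9840247 had a scaled difference of -0.38 ± 0.09 (SE, adjusted p = 0.0212 by limma) and an unscaled one of -0.05. In both, the cultures overlapped before scaling, so the call rests on their lacking the general shift of 0.33 by construction of the scale.

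The difference in the 14 regions with a mean summit of over 500 times the background depended on G128 replicate 1. This class was set after the values had been seen, and no test was made of it. Its library medians were 821 and 758 times the background on G2, and 783 and 745 times on G128. The median over the 14 regions of the unscaled log2 difference was -0.10, and it was 0.10 without G128 replicate 1, so its direction turned. Both G2 libraries were above both G128 libraries in 5 of the 14 and below them in 1. The shares were 81.0% and 1.11% over all members, and 67.6% and 2.79% over all shared regions. On the scaled measure 13 of the 14 were negative with a median of -0.43. Called lower were 9 of the 14, where 0.864% of all shared regions were. Without G128 replicate 1 the scaled median of the 14 was -0.12, with 12 negative.

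In the 5 classes of lower summits the scaled medians had no single order along height. They were -0.05 at up to 100 times the background, then 0.07, 0.10, 0.07 and 0.07 in the classes up to 150, 200, 300 and 500 times. Their unscaled medians were between 0.28 and 0.43, and without G128 replicate 1 between 0.21 and 0.32. The lowest class is the one that the limit of strength bears on.

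The 14 also differed in other respects from the bulk of the narrow strong regions. In 10 of them (71.4%) the summit was higher in G128 replicate 1 than in G128 replicate 2, against 13.4 to 27.8% in the lower classes. Their median width was 476 bp, where regions of over 300 and up to 500 times had 724 bp. Their median distance to the nearest other shared region was 172954 bp, against 8202 to 13022 bp in the lower classes, and 9 of the 14 lay more than 100 kb from one. Among the 119 autosomal shared regions of over 500 times, 105 were strong wide, with a median distance of 10459 bp and a median scaled difference of -0.01. Above 1000 times were 5 narrow strong and 10 strong wide regions, and the 10 had a median scaled difference of -0.26 and a median distance of 36524 bp. Lower scaled values and longer distances were thus also found in strong wide regions at the highest summits.

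Along width, the scaled medians were lower in the narrower classes. The 17 regions of at most 300 bp had a median scaled difference of -0.14, the 56 of over 300 and up to 400 bp -0.06, and the 272 of over 400 and up to 500 bp -0.02. The 526, 900 and 1119 regions in the next steps up to 600, 700 and 800 bp had 0.01, 0.05 and 0.06. Without G128 replicate 1 the 6 medians were -0.05, -0.08, 0.00379, 0.03, 0.06 and 0.05, so the order held only in part. G128 replicate 1 stood above replicate 2 in 52.9% of the narrowest class and in 15.3% of the widest. These classes too were set with the values known. Merged width takes in the peaks of all 4 libraries, which were more often wider on G2. Neither the classes nor the widths of the called regions are therefore independent of the difference between the cultures.

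Peaks of narrow strong regions were mostly single and centred, and peaks of strong wide regions were centred nearly as often. In 2778 of the 2890 (96.1%) every library had exactly 1 peak in the region, against 92.0% of narrow weaker and 73.8% of strong wide regions. The limit of 800 bp leaves little room for a further peak, so the contrast with strong wide regions is not free of the rule. The summit lay in the middle 50% of the peak in 89.0 and 88.1% of them in the G2 libraries, and in 85.7 and 85.9% in the G128 libraries. Its median position was 50.4 to 50.5% of the peak in all 4 libraries. In strong wide regions the summit lay in the middle 50% in 85.4 and 86.7% on G2, and in 84.4 and 85.7% on G128. In narrow weaker regions the shares were 77.2 and 75.4% on G2, and 70.9 and 71.7% on G128. These are descriptions over regions, which are not replicates.

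The median peak width was 592 and 644 bp in the G2 libraries, and 532 and 596.5 bp in the G128 libraries, so the cultures overlapped. The limit of 800 bp caps these widths, and they are not tested. Over all shared regions the group means were 554 ± 48.1 bp on G2 and 461 ± 59.4 bp on G128 (SD, n = 2), without overlap (exact permutation p = 0.333, the smallest possible). Both G2 peaks were wider than both G128 peaks in 1131 narrow strong regions (39.1%) and narrower in 68 (2.35%), where 43.5 and 2.89% of all shared regions were.

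In most narrow strong regions the summits of the 4 libraries lay within 100 bp of each other. The positions in the 4 libraries spanned a median of 21.0 bp in the narrow strong regions, with quartiles of 9.0 and 61.0 bp. The median was 51.0 bp in narrow weaker and 20 bp in strong wide regions. The span was over 100 bp in 385 narrow strong regions (13.3%), against 24.5% of narrow weaker and 18.3% of strong wide ones. The widest span in a narrow strong region was 506 bp. All 4 summits were within 10 bp in 886 narrow strong regions (30.7%), against 11.4% of narrow weaker and 34.3% of strong wide ones, and on the same base in 59. Summits of the narrow weaker regions rested on medians of 36 to 61 intervals, against 96 to 174 in the narrow strong ones. In the strong wide regions the medians were 141 to 269 intervals, with a span close to that of the narrow strong ones. Whether the number of intervals or the width sets the agreement was not tested. Within the narrow strong regions the median span was 28.0 bp at up to 100 times the background and 8.0 bp at over 500 times, with the classes between in order.

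Summits were about as close between cultures as within one, by the medians. Between 2 libraries the median distance of the summits was 7.0 bp within G2 and 9.0 bp within G128. It was 7.0 to 9.0 bp in the 4 pairs across the cultures. The median signed distance was 0 bp in every pair. In narrow weaker regions the same distances were 14.0 bp within G2, 17 bp within G128 and 14.0 to 18 bp across.

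**Figure D4:**
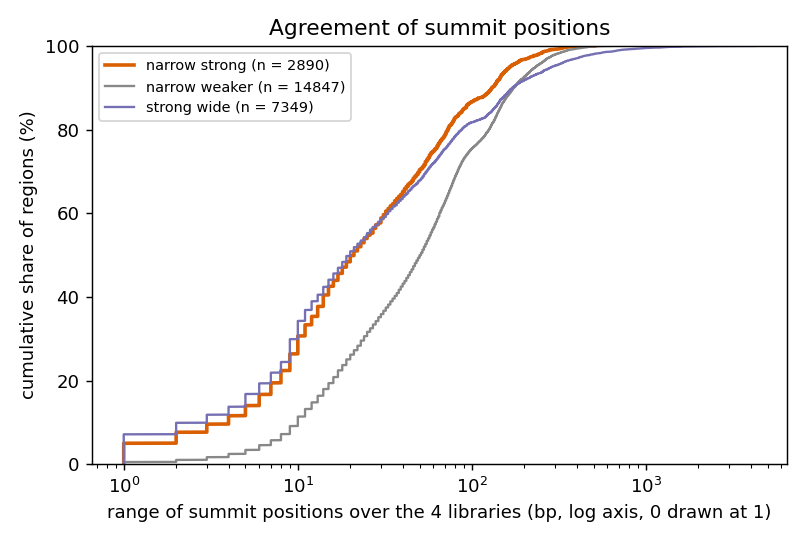
Cumulative share of regions (y axis, percent) by the range of summit positions over the 4 libraries (x axis, bp, log scale) for narrow strong, narrow weaker and strong wide shared regions. The narrow strong curve follows the strong wide one, with medians of 21.0 and 20 bp, and stays left of the narrow weaker one, with 51.0 bp.

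In a small number of narrow strong regions the summit sat at another place on G2 than on G128. In 36 of them the summits were within 10 bp in each culture and at least 50 bp apart between the cultures, on the mean of each. This was 1.25% of the narrow strong regions, where 1.44% of all shared regions (400 of 27768) met the same rule. Only regions with summits within 10 bp in each culture could count. These were 1127 of the 2890 narrow strong and 7706 of the 27768 shared regions, so the shares do not compare directly. The rule for moved summits was set after the positions had been seen. The largest step was in 7:127978940–127979702, where the summits were at 127979460 and 127979461 on G2, and both at 127979031 on G128. The region 6:97155406–97155986 had them at 97155607 and 97155609 on G2, and at 97155821 and 97155823 on G128.

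Of these 36, 1 was also called different in height, 11:59197737–59198507. Its summit was at 59198155 in both G2 libraries, with 83.7 and 87.7 times the background. On G128 it was at 59197990 and 59197991, with 105 and 131 times. Its scaled log2 difference was -0.79 ± 0.14 (SE), with an adjusted p of 0.00104 by limma.

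Distances to other open chromatin were much like those of the other sets. The median distance to the nearest other shared region was 9468 bp, against 7527 bp for narrow weaker and 9140 bp for strong wide regions. Another shared region lay within 1 kb of 529 narrow strong regions (18.3%) and within 5 kb of 1071 (37.1%). More than 50 kb from the next shared region lay 438 (15.2%), against 11.5% of narrow weaker and 11.7% of strong wide regions, and more than 100 kb away 193 (6.68%), against 4.78 and 4.54%. A region with a peak on G2 only, in both of its libraries, lay within 5 kb of 180 (6.23%), against 6.26% of narrow weaker and 5.86% of strong wide regions.

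**Figure D5:**
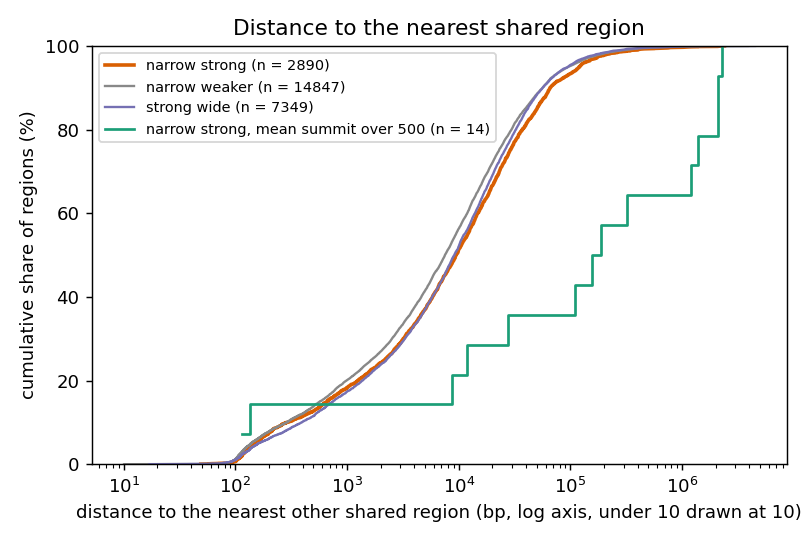
Cumulative share of regions (y axis, percent) by the distance to the nearest other shared region (x axis, bp, log scale) for the 3 sets, with the 14 narrow strong regions of over 500 times the background in green. The curves of the 3 sets run close together, and that of the 14 regions ends far to the right, with a median of 172954 bp.

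The distance between regions of a set depends on how many the set holds, and spacing by chance was not computed. The median distance from a narrow strong region to the nearest other one was 109647 bp. In the strong wide set it was 35269 bp and in the narrow weaker set 16092 bp, and both of these sets are larger. Another region of the same set lay within 10 kb of 39.8% of narrow weaker and 22.5% of strong wide regions. Of the narrow strong regions 273 (9.45%) had another one within 10 kb, in 131 runs. Of these runs 120 held 2 regions and 11 held 3, which was the largest number.

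The tightest run was a pair on chromosome 15, 15:101051074–101051761 and 15:101051863–101052590. The first had 113 and 115 times the background on G2, and 71.1 and 86.4 times on G128. The second had 144 and 148 times on G2, and 107 and 120 times on G128. Chromosome 12 held a run of 3 within 2151 bp, starting at 53703859, with regions of 760, 491 and 281 bp. Its first region had 130 and 155 times on G2, and 106 and 165 times on G128. A run of 3 on chromosome 11, within 4604 bp from 35647658, had regions of 756, 653 and 382 bp. None of the 8 regions in these runs was called, with adjusted p-values by limma of 0.224 to 0.937.

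The narrow strong regions were spread over all 19 autosomes in near proportion to the shared regions. They made up 9.24 to 12.6% of the shared regions of an autosome, with a median of 10.6%. The highest shares were on chromosome 9, with 165 regions, on chromosome 18, with 83 (12.3%), and on chromosome 2, with 261 (12.2%). The lowest were on chromosome 15, with 134 regions, and on chromosome 1, with 166 (9.37%). The median scaled difference per autosome was between -0.01 on chromosome 3 and 0.09 on chromosome 13.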

How the data were processed

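ATAC-seq peak lists of NIH3T3 cells cultured for 24 h on G2 or G128 were used, 2 libraries each, with groups and replicate numbers from the sample titles. The submitters' processing notes name Genrich 0.5, deepTools, Bowtie2 2.2.5, HISAT2 2.1.0, SAMtools 1.7, featureCounts 1.5.0-p1 and the build mm9, with no role or setting. The 4 lists deposited by the authors, 1 per library, hold a score, a signal, −log10 p-values, −log10 q-values and a summit offset per peak. The shifting of reads for the transposase and the treatment of duplicates and repeats are not given in the sources used here. Coordinates are those of the lists, from 1.

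The signal and the p-values deposited by the authors are the caller's own, and the score was not used. The normal quantiles of the lowest 100 distinct p-values of a list fell on a line when set against the log of consecutive whole numbers (root mean square error 1.45e-07 to 1.58e-07, next best start 0.00164 to 0.00244). This gave the summit in intervals, within 0.00179 of a whole number in every peak, and the background mean. This form is inferred from the values and is not stated by the submitters.

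Log2 summits over the background, less the library's median over 27768 shared regions, were tested with limma 3.58.1 (R 4.3.3, mean-variance trend) with Benjamini-Hochberg adjustment. The trend was not part of the planned fit. It was added after limma without it made 0 calls, and why that fit made none was not tested. Other values used Python 3.11.15, numpy 2.4.6, pandas 2.3.3 and scipy 1.17.1. The computations were tested on simulated data. Regions named were the 10 with the best worst rank, the 5 narrowest, up to 10 called in each direction whose groups did not overlap after scaling, 3 on each side of the limit and the 3 tightest runs. Regions with moved summits were chosen after their values were seen. The members and lists were chosen with earlier results of these data known. Alternatives concerned strength, width, merging, scaling, each library in turn and a replicate block. Genes, motifs and gene starts were not analysed here.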

Additional observations from a re-analysis of the deposited data

How the results depend on the processing

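The mean-variance trend in the reported test, the runs at other distances and the class values without G128 replicate 1 were chosen after seeing the data, and the other alternatives were planned. Alternatives with motifs and gene starts were not run, for want of an mm9 sequence and annotation. The number of narrow strong regions was 1642 with the best 25% and 6453 with the best 50% of each list, 871 and 5239 with width limits of 600 and 1000 bp, and 9036 with 500 bp windows around summits. The signal in place of p gave 2523, of which 2301 were among the 2890. Leaving out each library gave 3065 to 3776.

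Of the 11 higher and 27 lower regions on G2, limma without a mean-variance trend, which is nearest to the planned test, called 0 and 0 (226 of the 2890 had an unadjusted p under 0.05, and 434 with the trend). No scaling gave 926 and 5, quantile normalization 0 and 12, cyclic loess 1 and 27, and scaling to the strong wide regions 1 and 37. A test limited to mean summits from 40 times the background up gave 5 and 22, in all 0.934% of the members against 1.18% of the 20075 regions tested. Over the 4 fits without one of the libraries, 1 to 56 were higher and 11 to 66 lower, in all 0.450 to 3.94% of the members against 0.227 to 3.14% of all shared regions. Each of these 4 fits left 1 library for a culture. With the replicate number as a block and all libraries kept, the counts were 13 and 37. Deviations of same-numbered replicates correlated by 0.00279 over the shared regions, and the labels do not pair the libraries. The cause of these changes was not tested, apart from the general shift that no scaling leaves in.

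The median scaled difference of 0.04 was -0.0406 when scaled to the strong wide regions, -0.0153 after quantile normalization, -0.0183 after cyclic loess and -0.00245 with a width limit of 600 bp. It was 0.37 without scaling, 0.0599 and 0.00445 with the best 25% and 50% of each list, 0.05 with a limit of 1000 bp and 0.03 to 0.05 without each library. With the replicate block it was 0.04.

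The spread of summit positions was 17 and 28.0 bp with the best 25% and 50%, 20 bp with either width limit, and 14.0 to 15.0 bp without each library, where only 3 positions enter. The distance to the nearest shared region was 10414 and 7903 bp with the best 25% and 50%, and 6793 to 9289 bp without each library. The distance to the nearest other narrow strong region was 225624 and 45697 bp with the best 25% and 50%, 531767 and 57970 bp with limits of 600 and 1000 bp, and 79042 to 102412 bp without each library, as the set itself shrinks or grows. Within 5000 and 20000 bp of another lay 169 and 432.

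The lists reach down to summits of 20 and 25 intervals on G2, and 20 and 26 on G128, and weaker sites are not listed.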
